A study of Mus musculus with 8 samples.

Results

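Interleukin-2 and interleukin-7 reach T cells and innate lymphoid cells through receptors that share 1 chain, and the 7 genes of that system were followed here through the mouse colon. They were picked by name: the ligand genes Il2, Il7 and Il15 and the receptor chain genes Il2ra, Il2rb, Il2rg and Il7r, out of 31053 genes in the deposited tables. All 7 had rows and UMIs (unique molecular identifiers, one per captured transcript). Droplet single-cell RNA sequencing from the 3′ end had been run on CD4+ cells enriched from the colonic lamina propria, the tissue layer under the gut lining, of C57BL/6 mice aged 10 to 12 weeks. Each of the 4 combinations of genotype (wildtype or mutant) and treatment (none or DSS) had 2 libraries, described in the labels as independent biological replicates. DSS mice drank 2% dextran sulfate sodium, which injures the colonic epithelium, for 7 days and then water for 3 days, and untreated mice drank water only. All were taken on day 10. The mutant mice carry a serine-to-alanine substitution in RORγt, the nuclear receptor that T helper 17 cells and group 3 innate lymphoid cells need. The labels name it S182A in the series title and S203A in the sample titles, and which numbering applies was not settled here. Replicate numbers follow the order of deposition and only name libraries.

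Interleukin-2 is made mainly by activated T cells and binds with high affinity to a receptor of 3 chains. Il2ra encodes the alpha chain (CD25), which raises affinity and is kept high on regulatory T cells. Il2rb encodes the beta chain, which is shared with the interleukin-15 receptor, and Il2rg encodes the common gamma chain, which also serves the receptors of interleukins 4, 7, 9 and 21. Il7r encodes the interleukin-7 receptor alpha chain, a survival receptor of naive and memory T cells and of innate lymphoid cells. Il7 and Il15 are made by cells that include stromal, endothelial and myeloid cells, more than by T cells. Signals pass through the kinases Jak1 and Jak3 to the factors Stat5a and Stat5b.

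The 8 libraries held 34497509 to 46960005 UMIs, and 96721 of 100673 barcodes were kept. Of these, 60419 fell into T and innate lymphoid clusters, which split into 10 subsets, the smallest with 93 cells in its thinnest library. Subset names rest on clusters rebuilt here and on marker genes, because no deposited annotation of cell types was used, so a difference from the study's own cell types may come from these names. The 7 genes, the pathway genes described further on and, among others, haemoglobin genes were kept out of the genes used for clustering. Regulatory T cells (Treg) formed 2 subsets, one led by Foxp3 and Il10 and one led by Il1rl1 and Foxp3. Cluster 0, led by the haemoglobin genes Hbb-bs and Hba-a1, stayed unnamed, and cluster 7 was led by the heat-shock genes Hspa1a and Hspa1b and stayed unnamed as well. The term CD4 T cells below stands for the 20754 cells of T cell clusters that are on the authors' cell list, 1794 to 3758 per library, all with a Cd4 UMI. The untreated mutant libraries stood apart in heat-shock and related stress genes. Their summed level of 6 stress markers in CD4 T cells was 9328 and 10196 CPM (UMIs of a gene scaled to a common total of UMIs in the same cells), against 2654 to 4682 in the other 6 libraries, and cluster 7 made up 20.2% ± 6.90 (SD, n = 2) of their CD4 T cells, against 1.31% to 3.87% in the other groups. Libraries shared 21 to 64 barcode sequences per pair, with correlations of their UMI counts between -0.36 and 0.19.

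The 7 genes lie on 5 chromosomes of the mm10 build (GENCODE vM21 annotation). Il2 (ENSMUSG00000027720.7) spans chr3:37120523-37125959 on the minus strand and Il7 (ENSMUSG00000040329.14) chr3:7569994-7613760, also minus. Il2ra (ENSMUSG00000026770.5) spans chr2:11642807-11693193 on the plus strand. Il2rb (ENSMUSG00000068227.9) lies at chr15:78479256-78495271 and Il7r (ENSMUSG00000003882.5) at chr15:9505788-9530176, both minus. Il2rg (ENSMUSG00000031304.18) lies at chrX:101264378-101268255 and Il15 (ENSMUSG00000031712.10) at chr8:82331632-82403222, both minus. Il2rg shares 728 exon bases with Gm20489 on its own strand, and Il7 shares 105 exon bases with the antisense gene Gm16685, so counts of these members are uncertain to the extent that the counting could split or drop shared reads.

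Sequences by the start sites of Il2ra and Il7r are shown because both genes rose with DSS in T cell subsets described below. RefSeq promoter windows (GRCm38.p6) matched 4 members, Il2, Il2ra, Il2rg and Il7r. In the 250 bases before the Il2ra start site, chr2:11642542-11642791 on the plus strand, capitals mark a match to an NF-kB site (GGGA, any 3 bases, then CCC) that begins 201 bases upstream and a match to the core of an NFAT site (GGAAA, here on the other strand) that begins 190 bases upstream.
Il2ra: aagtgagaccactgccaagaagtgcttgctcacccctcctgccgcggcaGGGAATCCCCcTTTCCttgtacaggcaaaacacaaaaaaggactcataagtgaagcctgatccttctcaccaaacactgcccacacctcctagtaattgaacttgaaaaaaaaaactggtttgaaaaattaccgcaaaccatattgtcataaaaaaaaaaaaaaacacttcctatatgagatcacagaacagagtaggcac
For Il7r, the 30 bases at chr15:9529999-9530028 on the minus strand hold a match to a STAT5 site (TTCNNNGAA, capitals) that begins 142 bases before the RefSeq start.
Il7r: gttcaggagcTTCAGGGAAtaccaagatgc
The RefSeq start of Il7r lies inside the GENCODE gene, which begins 300 bases further upstream, so that window lies wholly within the gene in the other annotation, and 86 of its 250 bases are in exons there. Among 32851 windows of the same length, searched on both strands, 4.77% held the NF-kB letters, 55.6% the NFAT core, 7.02% the STAT5 letters, 14.02% a ROR site (AGGTCA) and 3.17% a FOXO site (TGTTTAC). None of the 4 windows held the ROR or FOXO letters, and such matches only describe letters in these windows.

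Among the ligands, Il2 was barely detected in T cells and was highest in the heat-shock-led cluster 7. In CD4 T cells 139 Il2 UMIs were counted in all. Their Il2 level was 1.61 and 1.85 CPM in the untreated wildtype, 3.22 and 2.12 in the untreated mutant, 3.55 and 2.35 in the DSS wildtype, and 1.39 and 1.27 in the DSS mutant libraries. Cells that should lack Il2 had 0 to 3.62 CPM in B cell-like, 0 to 2.44 in fibroblast-like and 0 to 3.92 in smooth muscle or pericyte-like cells. The tops of these ranges rest on few UMIs in single libraries, so they give only a rough background. The CD4 T cells lay within the widest of them, and macrophage-like and plasma cell-like cells are not in that comparison. In cluster 7, Il2 was at 24.99 and 26.7 CPM in the untreated wildtype libraries, 8.80 and 8.75 in the untreated mutant, 16.2 and 34.1 in the DSS wildtype, and 4.26 and 0 in the DSS mutant libraries. These levels rest on 100 UMIs, and the wildtype libraries lay above the mutant ones, but the genotype difference did not pass, with edgeR log2 values of -1.61 ± 0.46 (SE, adjusted p = 0.29) without DSS and -3.44 ± 1.18 (SE, adjusted p = 0.946) after it. The share of cells with an Il2 UMI overlapped between the genotypes, at 1.48% to 2.96% in wildtype and 0% to 1.72% in mutant libraries. The follicular helper-like cells came next with a median of 3.15 CPM over the 8 libraries, and cluster 7 lay above them in 7 of 8 libraries without passing the adjustment (exact paired permutation test over libraries, two-sided, p = 0.0312, adjusted p = 0.0597). Naive-like T cells were lowest, with 5 UMIs. Cluster 7 also led with Il17a, Il22 and Ifng, cytokine genes of stimulated T cells, and Il2 differences in CD4 T cells without it are given below.

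Among the clusters of these libraries Il7, the ligand of the receptor encoded by Il7r, was mainly a stromal transcript. No cluster was named for the columnar epithelial cells of the gut lining, so Il7 and Il15 in those cells were not measured here. Endothelial-like cells, led by the lymphatic vessel genes Ccl21a, Lyve1 and Mmrn1, held 812 Il7 UMIs in 834 cells. Their levels were 133 and 245 CPM in the untreated wildtype, 202 and 181 in the untreated mutant, 108 and 110 in the DSS wildtype, and 122 and 61.6 in the DSS mutant libraries. The untreated libraries lay above all 4 DSS libraries, but neither difference passed the edgeR test over all genes of that population, with log2 differences of -0.84 ± 0.34 (SE, adjusted p = 0.523) in wildtype and -1.03 ± 0.33 (SE, adjusted p = 0.242) in mutant mice, where 0.149% and 0.27% of genes were called. The mutant difference was called with no filter on low counts (edgeR adjusted p = 0.0199) and ranged from -1.68 to -0.67 over fits that left out 1 library, and the wildtype difference from -1.20 (without untreated wildtype replicate 1) to -0.40 (without replicate 2). A further cluster with endothelial genes (Plvap, Fabp4), left unnamed, had 1.54 to 4.27 CPM of Il7. Fibroblast-like cells had 10.3 to 14.6 CPM of Il7 in every library, smooth muscle or pericyte-like cells 4.34 to 14.3, and CD4 T cells 7 UMIs in all.

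Il15, whose receptor uses the chains of Il2rb and Il2rg, was found at low levels in many populations. Neutrophil-like cells had 5.18 to 92.2 CPM on only 34 UMIs, an unnamed cluster with endothelial and pericyte genes 8.54 to 19.1, and macrophage-like cells 4.82 to 11.2. Plasma cell-like cells had 2.01 to 5.03 CPM of Il15 on 98 UMIs, and squamous epithelial-like cells 0 to 20.9 on 26 UMIs. Fibroblast-like cells had Il15 at 8.26 and 10.2 CPM in the untreated wildtype, 11.5 and 9.88 in the untreated mutant, 4.07 and 4.22 in the DSS wildtype, and 7.54 and 1.197 in the DSS mutant libraries. The DSS libraries lay below the untreated ones in both genotypes, with edgeR log2 differences of -1.16 ± 0.56 (SE, adjusted p = 0.344) in wildtype and -1.18 ± 0.46 (SE, adjusted p = 0.14) in mutant mice. The mutant difference was called with no filter on low counts (-1.20, edgeR adjusted p = 0.00635), and it ranged from -3.07 to -0.54 over fits that left out 1 library. The value of -3.07 came without DSS mutant replicate 1, which left 1 DSS mutant library, at 1.197 CPM on few UMIs. Fibroblast-like cells numbered 1045 to 1859 per untreated and 175 to 589 per DSS library. A further cluster with fibroblast genes (Dcn, Col3a1), left unnamed, held 58 to 218 cells per untreated and 54 to 785 per DSS library. It is not part of these comparisons, and what it would change was not tested. Il15 had 21 UMIs in CD4 T cells.

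**Figure D1:**
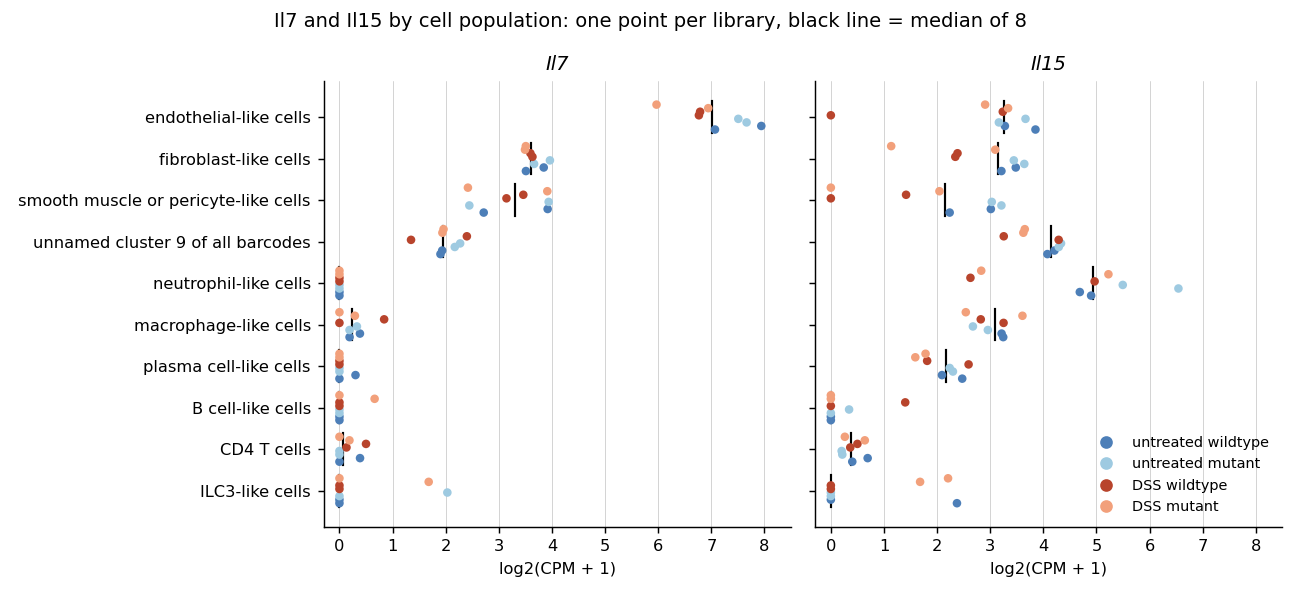
Levels of Il7 (left) and Il15 (right) in 10 cell populations, on a log2(CPM + 1) axis, with 1 point per library coloured by group and a black line at the median of the 8 libraries. Il7 is highest in the endothelial-like cells led by lymphatic genes, at 61.6 to 245 CPM, while Il15 is spread over several populations, and both are near 0 in CD4 T cells.

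Il2ra, the CD25 gene, separated the regulatory and innate subsets from the rest. Its median over the 8 libraries was 353 CPM in ILC3-like cells (group 3 innate lymphoid cells, range 261 to 485), 320 in Il1rl1 Treg-like cells (222 to 389) and 255 in Il10 Treg-like cells (223 to 329). Proliferating T cells followed at 158, with cluster 7 at 123, Th17-like cells at 116, Th1-like cells at 93.7 and cluster 0 at 68.4. Follicular helper-like cells at 21.1 and naive-like cells at 14.5 CPM were lowest. Neighbours among these first 3 subsets did not differ past the threshold, whereas Il10 Treg-like cells lay above proliferating cells in 8 of 8 libraries (exact paired permutation test, adjusted p = 0.0175). Th1-like cells lay above cluster 0 in 7 of 8 libraries (exact paired permutation test, adjusted p = 0.0318) and cluster 0 above follicular helper-like cells in 8 of 8 (adjusted p = 0.0175 by the same exact test). The steps from proliferating cells down to Th1-like cells, and between the lowest pair, did not pass.

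Free RNA in droplets gives UMIs in cells that do not express a gene, and B cell-like cells, which should lack Il2ra or hold little of it at rest, had 11.4 to 32.6 CPM. Il2ra in follicular helper-like (9.48 to 28.4) and naive-like cells (8.63 to 29.3 CPM) did not exceed that range. Follicular helper-like cells with a Foxp3 UMI, 7 to 66 per library, had 50.2 to 320 CPM of Il2ra. After each cell was thinned to 1000 UMIs, with shallower cells left out, the median share of cells with an Il2ra UMI was 28.5% in ILC3-like cells, 20.02% in Il10 Treg-like cells and 1.57% in B cell-like cells. Unthinned, these shares were 54.7%, 36.2% and 3.24%.

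Il2rb, the chain shared by the interleukin-2 and interleukin-15 receptors, followed another order. ILC3-like cells had a median of 1277 CPM (1146 to 1395) and Th17-like cells 751 (699 to 887). Each lay above the next subset in 8 of 8 libraries (exact paired permutation test, adjusted p = 0.0175). Il10 Treg-like cells at 620, Il1rl1 Treg-like cells at 547, Th1-like cells at 483, cluster 0 at 442, cluster 7 at 400 and proliferating cells at 399 CPM formed a slope in which no neighbours differed past the threshold. Follicular helper-like cells at 245 and naive-like cells at 117 CPM were lower again, each step in 8 of 8 libraries with adjusted p = 0.0175 by the same exact test.

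Il2rg, the common gamma chain gene, varied least of the receptor chains, from a median of 352 CPM in ILC3-like cells (297 to 411) to 143 in naive-like cells (117 to 167). Il1rl1 Treg-like cells came next at 276 CPM, below ILC3-like cells in 8 of 8 libraries (exact paired permutation test, adjusted p = 0.0175) and above Th1-like cells in 7 of 8 (adjusted p = 0.0318 by the same exact test). Th1-like, Il10 Treg-like and Th17-like cells, cluster 7 and cluster 0 lay between 248 and 218 CPM without a step past the threshold. Cluster 0 lay above proliferating cells (174 CPM) in 8 of 8 libraries (exact paired permutation test, adjusted p = 0.0175).

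Il7r was highest in ILC3-like cells, with a median of 958 CPM (625 to 1115), and second in the unnamed cluster 0 with 550 (379 to 736). Both steps, from ILC3-like cells to cluster 0 and from there to Th1-like cells at 370 CPM, held in 8 of 8 libraries (exact paired permutation test, adjusted p = 0.0175). Il10 Treg-like cells at 352, cluster 7 at 310 and Il1rl1 Treg-like cells at 303 CPM followed Th1-like cells without a step past the threshold. Th17-like cells, at 253, lay below Il1rl1 Treg-like cells in 7 of 8 libraries (exact paired permutation test, adjusted p = 0.0318). Naive-like cells, at 202 CPM (145 to 229), lay above proliferating cells at 131 in 8 of 8 libraries (adjusted p = 0.0175 by the same exact test). Follicular helper-like cells were lowest at 99.2 CPM and spanned 41.6 to 166.

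**Figure D2:**
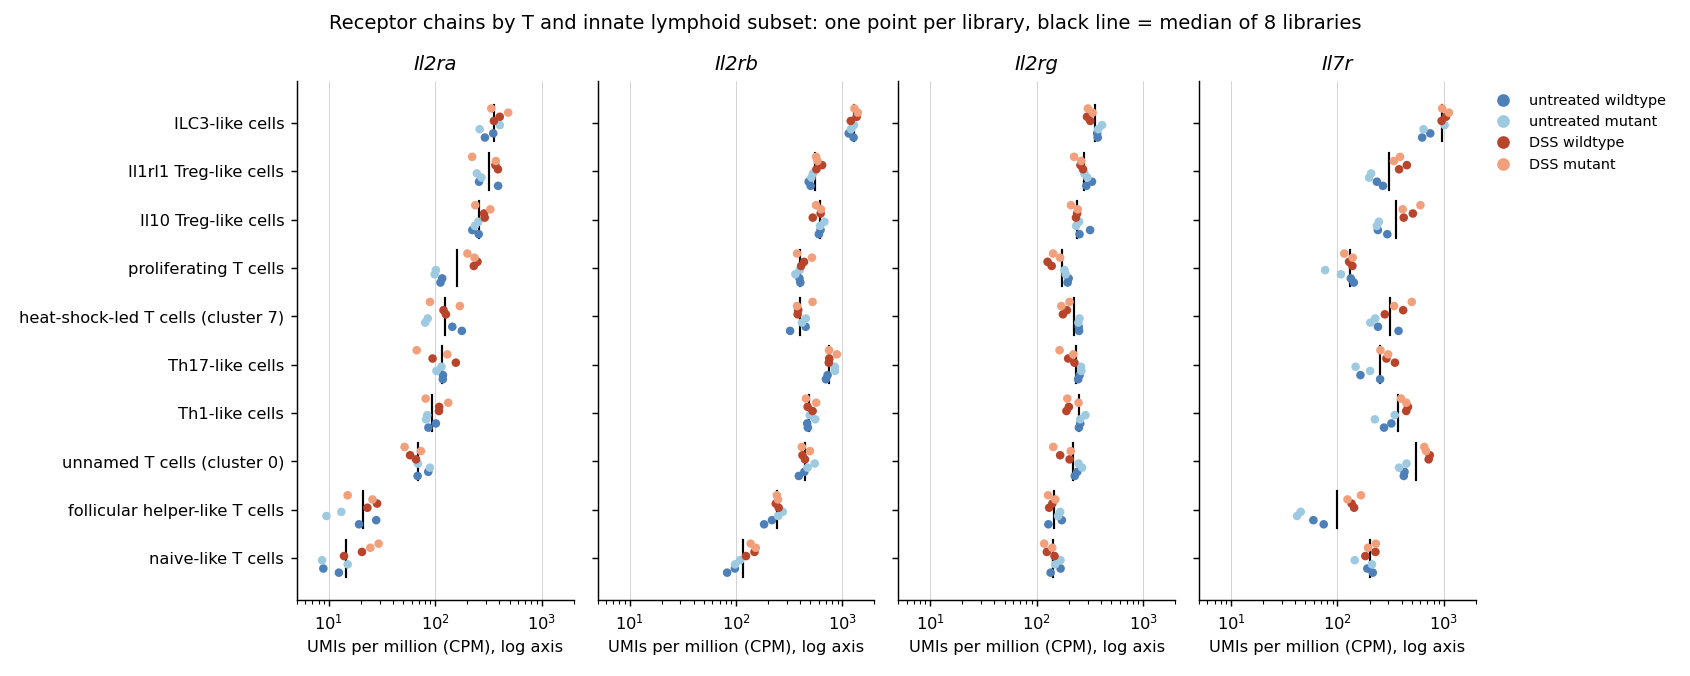
Levels of Il2ra, Il2rb, Il2rg and Il7r in the 10 T and innate lymphoid subsets, as CPM on a log axis, with 1 point per library coloured by group and a black line at the median of 8 libraries. ILC3-like cells are at the top for each chain, with medians of 353, 1277, 352 and 958 CPM, while the lowest subset is naive-like for Il2ra, Il2rb and Il2rg and follicular helper-like for Il7r.

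Across all pairs of subsets, 148 of 180 comparisons of the 4 receptor chains (82.2%) passed an adjusted p of 0.05 in the exact paired permutation test, 38 of 45 each for Il2ra, Il2rb and Il7r and 34 of 45 for Il2rg. Il2 passed in 13 of 45, and Il7 and Il15 in none of 45. At the same unadjusted limit, 50.2% of 232740 tests over genes with at least 20 CPM passed, so that differences between subsets are common. The subsets had been built from other genes of the same cells. The smallest p that 8 libraries allow is 0.0078125, and no pair reversed under the settings that kept the same subsets. The coarser clustering made other subsets, whose pairs could not be matched. The genes whose levels followed a member most closely over the 80 subset and library values were named by Pearson's r among 5172 genes. For Il2ra they were Sdc4 (0.90), Myo1e (0.90), Ly6e (0.89), Fam129a (0.89) and Fgl2 (0.88). For Il2rb they were Fnbp1 and Rab11fip1 (both 0.94), D16Ertd472e (0.94), Ehd1 (0.93) and Slc15a3 (0.93), and for Il7r Itgb3 (0.86), Gpr132 (0.83), Irak2 (0.79), Il4ra (0.76) and Kctd12 (0.76). Between members, Il2ra and Il2rb followed each other at r = 0.83 and Il2ra and Il7r at 0.53. The values share libraries and depth, and these correlations are descriptions.

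The first comparison of the study asked what DSS does to these cells. In CD4 T cells as a whole, Il2ra and Il7r were higher after DSS in both genotypes, and Il2rg was lower, while Il2rb showed no clear shift. Il2ra was at 102 and 108 CPM in the untreated wildtype, 87.5 and 94.1 in the untreated mutant, 173 and 163 in the DSS wildtype, and 168 and 138 in the DSS mutant libraries. All 4 DSS libraries lay above all 4 untreated ones. The edgeR log2 difference was 0.61 ± 0.13 (SE, adjusted p = 0.0741) in wildtype mice, short of the threshold, and 0.67 ± 0.13 (SE, adjusted p = 0.0298) in mutant mice, where Il2ra rose.

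Il7r was at 253 and 245 CPM in the untreated wildtype, 175 and 194 in the untreated mutant, 342 and 418 in the DSS wildtype, and 330 and 344 in the DSS mutant libraries. The groups with and without DSS did not overlap, and the untreated mutant libraries were lowest. Il7r rose in mutant mice by a log2 difference of 0.78 ± 0.12 (SE, edgeR adjusted p = 0.018), and the wildtype difference of 0.54 ± 0.12 (SE, edgeR adjusted p = 0.0848) did not pass. Il2rg was at 229 and 253 CPM in the untreated wildtype, 230 and 234 in the untreated mutant, 196 and 182 in the DSS wildtype, and 213 and 177 in the DSS mutant libraries. Again the groups did not overlap, with edgeR log2 differences of -0.42 ± 0.13 (SE, adjusted p = 0.137) and -0.34 ± 0.13 (SE, adjusted p = 0.126) in wildtype and mutant mice, neither past the threshold. Il2rb spanned 446 to 641 CPM over the 8 libraries with overlapping groups, and its DSS differences were 0.03 and 0.07 on the log2 scale. For Il2, whose low levels lay within the rough background range given above, the edgeR log2 difference was 0.72 ± 0.41 (SE, adjusted p = 0.379) in wildtype and -1.09 ± 0.42 (SE, adjusted p = 0.134) in mutant mice. In T cells on or off the authors' list these were -0.30 (edgeR adjusted p = 0.637) and -1.36 (edgeR adjusted p = 0.0458), and leaving out 1 library gave 0.35 to 0.98 and -1.34 to -0.78. Without the cells of cluster 7 the wildtype difference was 0.74 (edgeR adjusted p = 0.385) and the mutant one -0.39 (edgeR adjusted p = 0.639).

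Of the 5 members that passed the filter on low counts (Il2 and the 4 receptor chains), none was called in wildtype mice, where 0.245% of 11017 genes were called by edgeR. At an unadjusted p under 0.05 there were 3, and DESeq2 called 2, Il2ra and Il7r. In mutant mice 2 of 5 were called, both higher, against 4.49% of all genes (2.06% higher and 2.43% lower). There 4 had an unadjusted p under 0.05, and DESeq2 called 2. Leaving out either untreated mutant library ended both mutant calls (edgeR adjusted p = 0.152 and 0.119 for Il2ra, 0.129 and 0.0734 for Il7r, without replicates 1 and 2). The Il2ra call was also lost without DSS mutant replicate 1 (edgeR adjusted p = 0.055) or either untreated wildtype library, and the Il7r call without DSS mutant replicate 2 (edgeR adjusted p = 0.0734). Without the cells of cluster 7, an alternative added after the data had been seen, both mutant calls held (edgeR adjusted p = 0.0402 for Il2ra and 0.0236 for Il7r). Stress genes were also higher in the untreated mutant libraries outside cluster 7, as in the follicular helper-like cells below. Leaving out cluster 7 does not remove that difference, whose part in these calls was not tested.

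**Figure D3:**
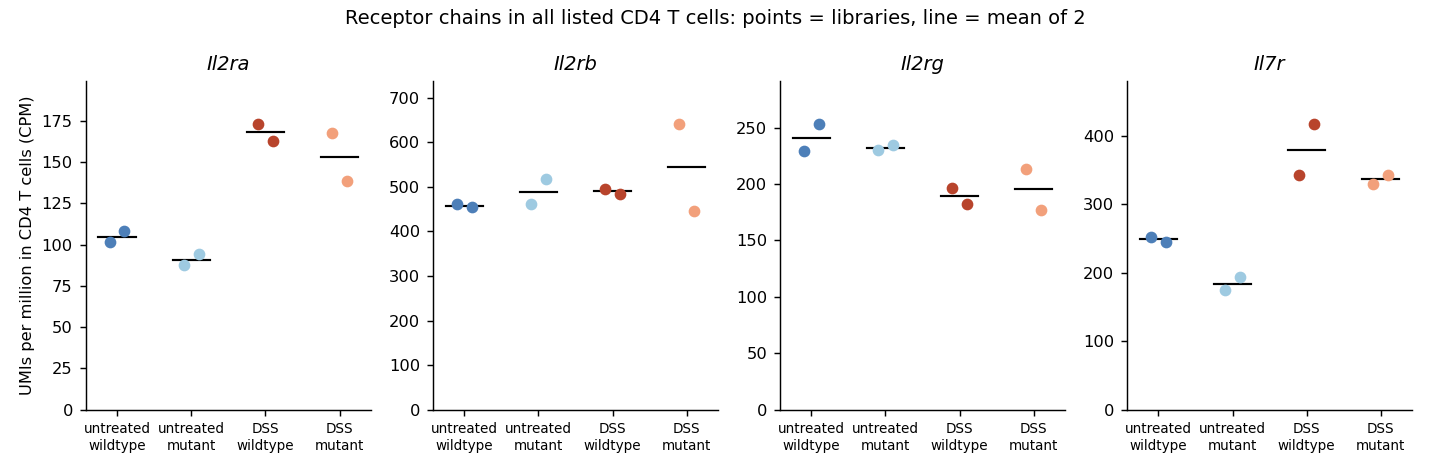
Levels of the 4 receptor chain genes in CD4 T cells on the authors' list, as CPM from 0, with 1 point per library and a line at the mean of 2 libraries for each group. Il2ra and Il7r are higher in all 4 DSS libraries than in any untreated library, and Il2rg is lower.

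The DSS differences were next taken within subsets. These fits used all cells of a subset, on or off the authors' list, while the main fits above used listed cells only. They therefore do not divide the differences above into level and mix. The make-up inside a subset also shifted, as described below for follicular helper-like and proliferating cells. The largest difference past the threshold was Il7r in follicular helper-like cells, which had the lowest Il7r of all subsets at rest. There it was at 74.2 and 59.3 CPM in the untreated wildtype, 41.6 and 45.1 in the untreated mutant, 143 and 136 in the DSS wildtype, and 124 and 166 in the DSS mutant libraries. All DSS libraries lay above all untreated ones. Il7r rose in both genotypes, with edgeR log2 differences of 1.04 ± 0.17 (SE, adjusted p = 0.0168) in wildtype and 1.70 ± 0.18 (SE, adjusted p = 0.000269) in mutant mice, where 0.452% and 7.15% of genes were called in that subset. The wildtype call was lost without untreated wildtype replicate 1 (edgeR adjusted p = 0.118) or 2 (0.446) or DSS wildtype replicate 2 (0.135), while the mutant call held in all 8 fits that left out 1 library.

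Other features of the follicular helper-like cells moved along with Il7r. Their summed level of 5 follicular helper markers was 673 to 726 CPM in untreated wildtype and 570 to 630 in DSS wildtype libraries, and 645 to 720 and 461 to 616 in the mutant ones. The summed level of 6 naive or central memory markers went from 935 to 965 up to 1032 to 1183 CPM in wildtype and from 899 to 984 up to 1176 to 1341 in mutant mice. Cells with a Foxp3 UMI made up 1.09% and 0.962% of the subset in untreated wildtype and mutant mice and 3.47% and 6.73% after DSS. In the cells without a Foxp3 UMI, Il7r was still at 59.6 to 73.7 CPM in untreated and 138 to 142 in DSS wildtype libraries, and at 38.4 to 45.0 and 127 to 165 CPM in mutant ones. B cell-like cells had 18.0 to 24.7 CPM of Il7r in the untreated and 47.8 to 75.4 in the DSS libraries. Free RNA, doublets and true transcripts were not told apart in those cells. The part of such UMIs and of the naive markers in the result was not tested, and neither was that of the stress list, which was at 8190 to 9105 CPM in untreated mutant and 2629 to 4446 in the other libraries of this subset.

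Il7r also rose in both Treg subsets of mutant mice. In Il10 Treg-like cells it was at 294 and 240 CPM in the untreated wildtype, 234 and 245 in the untreated mutant, 419 and 511 in the DSS wildtype, and 410 and 602 in the DSS mutant libraries. DSS libraries lay above untreated ones without overlap, with edgeR log2 differences of 1.04 ± 0.18 (SE, adjusted p = 0.00809, 4.86% of genes called) in mutant and 0.75 ± 0.18 (SE, adjusted p = 0.0621, 0.746% called) in wildtype mice. In Il1rl1 Treg-like cells it was at 267 and 235 CPM in the untreated wildtype, 198 and 207 in the untreated mutant, 379 and 449 in the DSS wildtype, and 339 and 387 in the DSS mutant libraries. Here too no DSS library overlapped an untreated one, and the edgeR log2 difference was 0.76 ± 0.17 (SE, adjusted p = 0.0287, 2.21% called) in mutant and 0.66 ± 0.16 (SE, adjusted p = 0.0824, 0.236% called) in wildtype mice. Both mutant calls were lost without either untreated mutant library (edgeR adjusted p = 0.0874 and 0.105 for Il10 Treg-like cells, 0.203 and 0.221 for Il1rl1 Treg-like cells), and the second also without DSS mutant replicate 2 (0.161) and on the authors' cell list alone (0.229). The wildtype difference gained a call in 5 of 13 other settings in each of these subsets, with no filter on low counts (edgeR adjusted p = 2.86e-05 and 0.0234), with DESeq2 (adjusted p = 0.00932 and 0.026) and without either DSS mutant library (edgeR adjusted p up to 0.00668 and 0.0414). The fifth setting was the fit of only the 4 libraries compared for Il10 Treg-like cells (edgeR adjusted p = 0.0177), and for Il1rl1 Treg-like cells the fit without DSS wildtype replicate 1 (edgeR adjusted p = 0.0435).

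Cluster 0, the unnamed T cells with much Il7r, showed the same side without passing. Its Il7r level was 420 and 427 CPM in the untreated wildtype, 379 and 446 in the untreated mutant, 719 and 736 in the DSS wildtype, and 680 and 654 in the DSS mutant libraries. These groups did not overlap, with edgeR log2 differences of 0.73 ± 0.15 (SE, adjusted p = 0.0537) and 0.57 ± 0.15 (SE, adjusted p = 0.0508). In cluster 0, 0.397% of genes were called in wildtype and 3.66% in mutant mice. Over the 10 subsets the Il7r difference was positive in 8 in wildtype and in 10 in mutant mice, with medians of 0.57 and 0.61. No member passed in Th1-like, Th17-like or naive-like cells or in cluster 7, where 0.0326%, 0.0346%, 0.444% and 0.644% of genes were called in wildtype and 3.98%, 3.69%, 7.42% and 1.9% in mutant mice. The 2 negative wildtype values were those of proliferating (-0.09) and naive-like cells. Naive-like cells had edgeR log2 differences of -0.12 ± 0.17 (SE, adjusted p = 0.79) in wildtype and 0.07 ± 0.17 (SE, adjusted p = 0.856) in mutant mice.

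Il2ra passed the test of DSS in 1 subset, the proliferating T cells. It was at 112 and 116 CPM in the untreated wildtype, 98.8 and 101 in the untreated mutant, 230 and 249 in the DSS wildtype, and 233 and 200 in the DSS mutant libraries. No DSS library came near an untreated one, and Il2ra rose by edgeR log2 differences of 1.03 ± 0.13 (SE, adjusted p = 0.00133) in wildtype and 1.11 ± 0.14 (SE, adjusted p = 0.00134) in mutant mice, where 3.64% and 3.3% of genes were called. Both calls held in all 8 fits that left out 1 library, with adjusted p up to 0.0372 and 0.0293. In the Treg-like subsets the Il2ra differences were small, between 0.11 and 0.22 on the log2 scale, and in cluster 0 they were negative, -0.37 and -0.42, none past the threshold (smallest edgeR adjusted p over these 6 tests 0.257). Over the 10 subsets the Il2ra difference was positive in 8 in each genotype, and the subsets were not tested against each other.

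Proliferating cells with a Foxp3 UMI, Foxp3 being the master regulator gene of Treg cells, made up a larger share after DSS, a difference given without a test. Their share was 12.5% in untreated wildtype and 10.1% in untreated mutant mice and 42.0% and 36.6% in DSS wildtype and mutant mice, in means of 2 libraries. This share depends on depth and was not thinned. Median UMIs per proliferating cell were 4183.5 to 5941 in untreated and 4978 to 9051 in DSS libraries. As a level scaled for depth, Foxp3 was at 23.4 to 44.4 CPM in untreated and 111 to 141 in DSS libraries. Within the cells that had a Foxp3 UMI, Il2ra was at 192 and 239 CPM in untreated wildtype and 153 and 188 in untreated mutant libraries, and at 346 and 351 in DSS wildtype and 285 and 329 in DSS mutant ones. In the cells without one it was at 84.9 and 103 CPM, and at 90.1 in both untreated mutant libraries, against 121 and 152 in DSS wildtype and 121 and 172 in DSS mutant libraries. So the DSS libraries lay above the untreated ones in both fractions as well as in the share of Foxp3 cells. The split misses Foxp3 transcripts that were not captured, and its part in the difference was not tested.

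**Figure D4:**
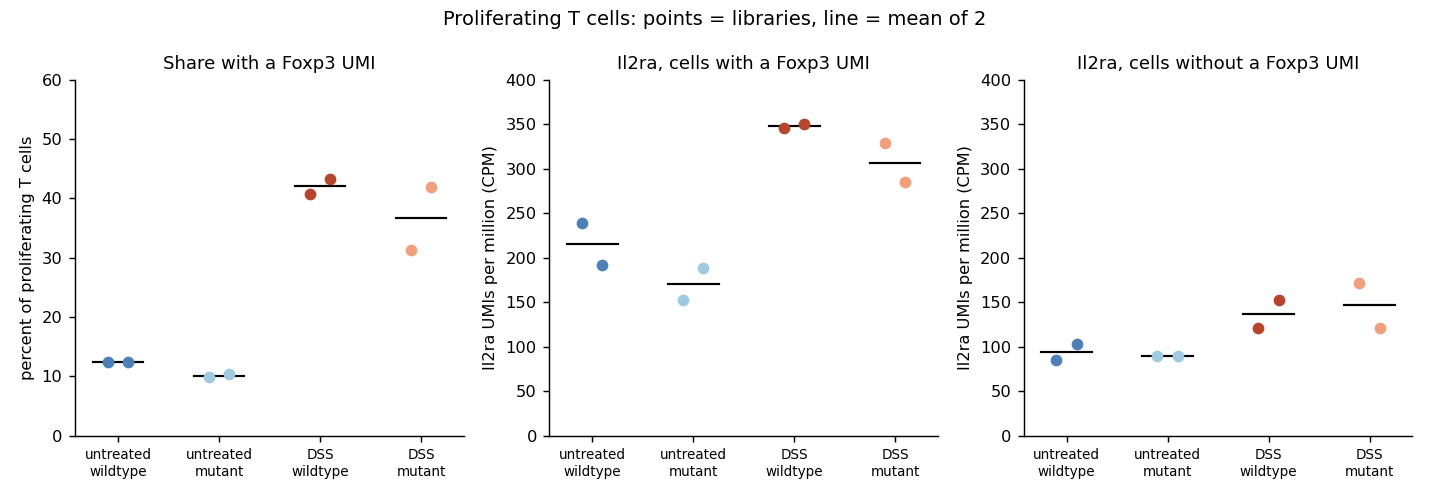
Proliferating T cells: the percent with a Foxp3 UMI (left), and Il2ra in CPM in cells with (middle) and without (right) a Foxp3 UMI, with 1 point per library and a line at the mean of 2. The share is 9.84% to 12.5% in the untreated and 31.25% to 43.3% in the DSS libraries, and Il2ra is higher after DSS in both fractions.

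Beside this, the make-up of the CD4 T cells differed between groups. Il10 Treg-like cells were 10.1% ± 0.872 and 8.21% ± 1.005 (SD, n = 2) of them in untreated wildtype and mutant mice and 18.1% ± 1.78 and 16.4% ± 2.65 after DSS. Il1rl1 Treg-like cells, the subset with the most Il2ra among T cells, were 3.53% ± 0.154 and 2.27% ± 0.298 without DSS and 7.17% ± 0.573 and 6.86% ± 1.74 with it. In CD4 T cells with a Foxp3 UMI, Il2ra was at 180 to 205 CPM in untreated and 298 to 307 in DSS wildtype libraries. Mutant libraries had 156 to 159 CPM in these cells without DSS and 245 to 300 after it. In CD4 T cells without a Foxp3 UMI, Il2ra was at 82.7 to 96.9 CPM in untreated and 109 to 115 in DSS wildtype libraries, and at 76.4 to 88.2 and 79.0 to 129 in mutant ones, where the groups overlapped. Il7r in the same cells was at 249 to 255 and 344 to 412 CPM in wildtype and at 173 to 192 and 303 to 339 in mutant libraries, without overlap.

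Il2rg, the common chain, lay lower after DSS in 10 of 10 subsets in both genotypes, with median log2 differences of -0.32 in wildtype and -0.41 in mutant mice. A single test passed. In proliferating cells Il2rg was at 195 and 199 CPM in the untreated wildtype, 187 and 182 in the untreated mutant, 138 and 126 in the DSS wildtype, and 166 and 142 in the DSS mutant libraries. The DSS libraries lay below the untreated ones, and Il2rg fell in wildtype mice by an edgeR log2 difference of -0.61 ± 0.13 (SE, adjusted p = 0.0185). The mutant difference was -0.27 ± 0.14 (SE, edgeR adjusted p = 0.281). Leaving out any 1 of the 4 wildtype libraries ended the call (edgeR adjusted p from 0.0633 to 0.175). Il2rb, in contrast, was positive in 8 and 5 of 10 subsets with medians of 0.04 and -0.03, and no test of it passed. The subsets share libraries, so the 10 signs are not independent.

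ILC3-like cells, which had the highest median of each receptor chain among the 10 subsets, showed no member past the threshold, and only 0.0731% (wildtype) and 0.603% (mutant) of genes were called there. Il7r was at 625 and 744 CPM in their untreated wildtype, 644 and 1016 in their untreated mutant, 952 and 1046 in their DSS wildtype, and 1115 and 963 in their DSS mutant libraries. Untreated mutant replicate 2 overlapped the DSS libraries. With 93 to 157 cells per library, this subset had the fewest cells. It also held T cell transcripts, with Cd3e at 46.3 to 148 and Trac at 64.2 to 119 CPM over the libraries. The mean level of 6 T cell markers was 124 CPM there, against 270 in naive-like cells, the lowest T cell subset. The source of these UMIs and their part in the receptor chain levels were not tested.

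**Figure D5:**
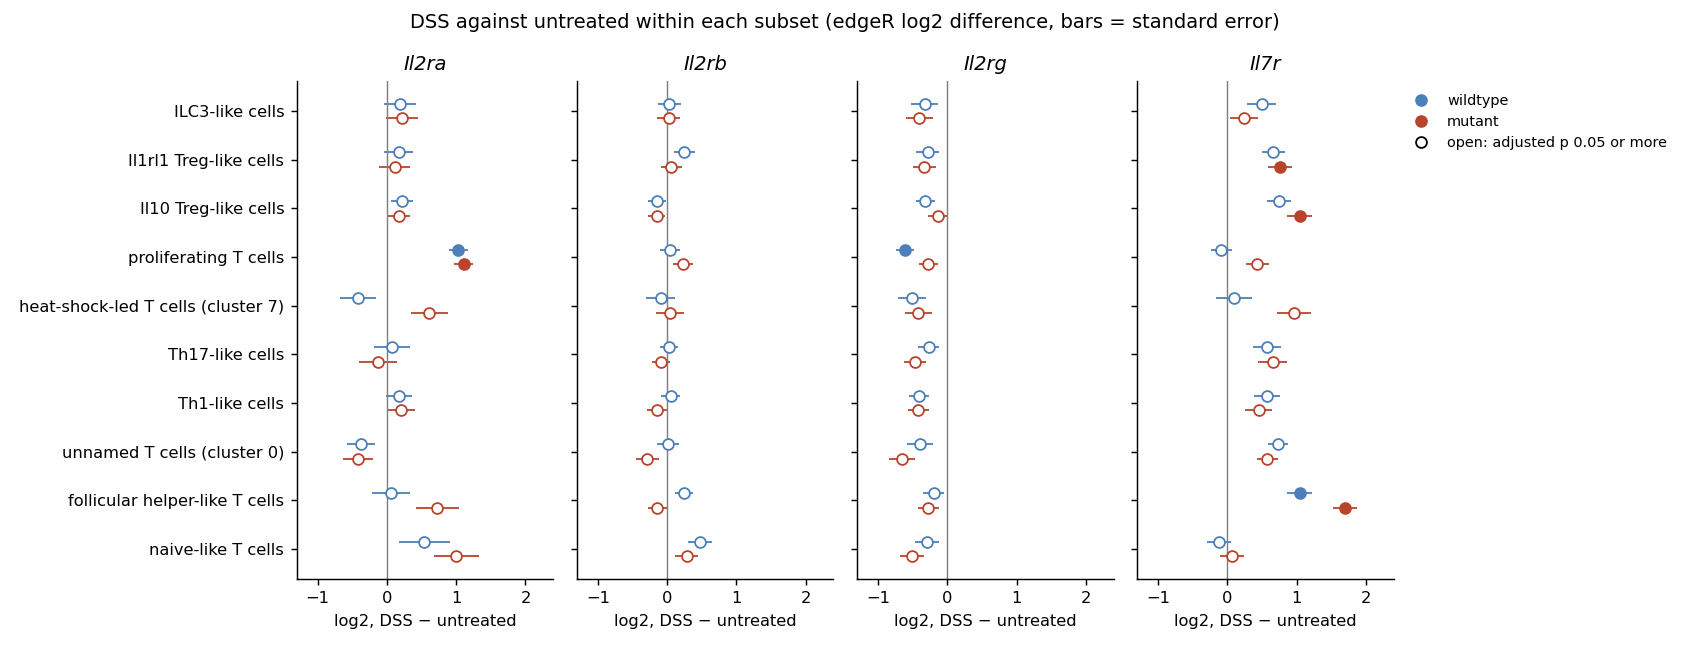
DSS minus untreated as edgeR log2 differences for Il2ra, Il2rb, Il2rg and Il7r in each of the 10 subsets, with wildtype in blue, mutant in red and bars for the standard error. Filled points passed an adjusted p of 0.05: Il2ra and Il2rg in proliferating cells, and Il7r in follicular helper-like and both Treg-like subsets, while all 20 Il2rg points lie below 0.

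The second comparison of the study set the mutant against the wildtype. Neither in untreated mice nor after DSS was a member called in CD4 T cells, and 0.0% of 11017 genes were called in either. At an unadjusted p under 0.05 there was 1 member in each, Il7r in untreated mice and Il2 after DSS, and DESeq2 called no member. Il7r was lower in the untreated mutant libraries, at 175 and 194 against 253 and 245 CPM, with an edgeR log2 difference of -0.43 ± 0.12 (SE, adjusted p = 0.688). The other untreated differences were -0.21 for Il2ra, 0.097 for Il2rb, -0.053 for Il2rg and 0.61 for Il2 (edgeR adjusted p from 0.957 to 0.989). After DSS they were -0.15 for Il2ra, 0.13 for Il2rb, 0.025 for Il2rg, -0.19 for Il7r and -1.19 for Il2 (edgeR adjusted p = 0.9998 for each). Within subsets the untreated Il7r difference was negative in 9 of 10, the largest in follicular helper-like (-0.59) and proliferating cells (-0.59), and after DSS it was negative in 5 of 10. No member passed in any subset in either genotype comparison (smallest edgeR adjusted p 0.203 and 0.946), with 7 and 2 of 42 tests under an unadjusted p of 0.05 and none called by DESeq2. In untreated mice 0.183% of all genes were called in ILC3-like cells, 0.117% in naive-like, 0.0786% in Il1rl1 Treg-like, 0.0661% in follicular helper-like and 0.0231% in Th17-like cells, 0.0368% in cluster 7 and 0.0% in the other subsets, and after DSS 0.0% in every subset.

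Whether DSS acted differently in the 2 genotypes was tested as an interaction. No member was called in CD4 T cells (0.0% of genes) or within a subset, where 4 of 42 tests had an unadjusted p under 0.05, DESeq2 called none, and 0.0% of all genes were called in 6 subsets (naive-like 0.0522%, Th17-like 0.0231%, cluster 7 0.0184%, follicular helper-like 0.011%). For Il7r in follicular helper-like cells, whose mutant difference was the larger, the interaction was 0.66 ± 0.25 on the log2 scale (SE, edgeR adjusted p = 0.999). In proliferating cells the Il2ra interaction was 0.08 ± 0.19 (SE, edgeR adjusted p = 0.986) and that of Il2rg 0.34 ± 0.19 (SE, edgeR adjusted p = 0.873). So the calls made in mutant and not in wildtype mice were not shown to differ between the genotypes. In CD4 T cells the interactions were 0.055 for Il2ra, 0.038 for Il2rb, 0.079 for Il2rg and 0.24 for Il7r. That of Il2, -1.80 ± 0.58 (SE), was the 1 with an unadjusted p under 0.05 (edgeR adjusted p = 0.999 for all 5), and DESeq2 called none.

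Related ligands, receptors and signalling genes were followed in a list of 20 further genes: 3 ligands of the common gamma chain family (Il4, Il9, Il21), receptor chains that pair with it or serve its ligands (Il4ra, Il9r, Il21r, Il15ra), the ligand Tslp and its receptor chain Crlf2, which pairs with the Il7r chain and not with the common gamma chain, the kinases and STAT5 factors named above, feedback inhibitors (Cish, Socs1, Socs2, Socs3), and target genes for survival (Bcl2, Pim1, Pim2). In CD4 T cells 17 passed the filter on low counts, and Il4, Il9 and Tslp did not. With DSS in wildtype mice none was called by edgeR or DESeq2 (2 had an unadjusted p under 0.05), 10 differences were positive and 7 negative, and their median of 0.03 stood beside 0.01 for all genes. With DSS in mutant mice 2 fell and none rose, beside 4.49% of all genes called. There DESeq2 called 3, and 4 had an unadjusted p under 0.05. Of the differences, 7 were positive and 10 negative, and the median was -0.04 beside 0.01. Il21, a ligand made by follicular helper and Th17 cells, fell by 1.41 ± 0.19 on the log2 scale (SE, edgeR adjusted p = 0.0132), and Socs1, an inhibitor of JAK kinases, fell by 0.77 ± 0.13 (SE, edgeR adjusted p = 0.0244). Both calls were lost without either untreated mutant library or without DSS mutant replicate 2, with edgeR adjusted p from 0.0661 to 0.14. The Socs1 call was also lost without untreated wildtype replicate 1 (edgeR adjusted p = 0.0506) or 2 (0.0515) and with only the 4 libraries compared (0.0612). In wildtype mice the DSS differences were -0.17 for Il21 (edgeR adjusted p = 0.682) and -0.18 for Socs1 (edgeR adjusted p = 0.497). Without DSS, Il21 differed by 0.98 between mutant and wildtype mice (edgeR adjusted p = 0.407). In mutant mice follicular helper-like cells were 18.3% of the CD4 T cells without DSS and 10.1% with it, and cluster 7 was 20.2% and 1.31%. Without the cells of cluster 7 the mutant differences were -1.18 for Il21 (edgeR adjusted p = 0.0362) and -0.74 for Socs1 (edgeR adjusted p = 0.0321). The part of the follicular helper-like share was not tested, and neither was that of stress genes outside cluster 7. Stat5b, which carries the signal of both receptors, differed by 0.46 ± 0.14 in wildtype (SE, edgeR adjusted p = 0.139) and 0.55 ± 0.14 in mutant mice (SE, edgeR adjusted p = 0.0508), and neither passed. With no filter on low counts edgeR called Stat5b higher in both, at 0.46 (adjusted p = 0.0301) in wildtype and 0.58 (adjusted p = 0.00159) in mutant mice. Socs3 and Bcl2 differed by 0.31 and 0.37 in wildtype and by -0.0013 and -0.18 in mutant mice, not past the threshold.

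For mutant against wildtype mice, 12 of the 17 pathway genes were positive and 5 negative without DSS (median 0.13 beside -0.003 for all genes), and 7 and 10 after it (median -0.02 beside 0.001). For the interaction, 6 were positive and 11 negative (median -0.07). No pathway gene was called in these 3 comparisons by edgeR with the filter on low counts or by DESeq2, with 2, 0 and 2 at an unadjusted p under 0.05. With no filter edgeR called Il21 for untreated mutant against wildtype mice (0.96, adjusted p = 0.000121) and for the interaction (-1.21, adjusted p = 0.00371).

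Receptor chain UMIs were also counted outside lymphoid cells. The fibroblast-like cells here leave out the unnamed cluster with fibroblast genes described above. In fibroblast-like cells Il7r was at 44.0 and 52.2 CPM in the untreated wildtype, 25.7 and 32.1 in the untreated mutant, 75.8 and 52.7 in the DSS wildtype, and 73.6 and 106 in the DSS mutant libraries. DSS mutant replicate 2 was highest. In that population all 4 receptor chains passed in mutant mice, among 6.32% of genes called (2.44% in wildtype mice, where no member passed), with edgeR log2 differences of 1.67 for Il7r (adjusted p = 0.006), 1.48 for Il2ra (0.0295), 0.83 for Il2rb (0.0364) and 0.71 for Il2rg (0.0338). Their summed level of 6 T cell markers was 350 to 421 CPM in untreated mutant and 491 to 680 in DSS mutant libraries, and its part in these differences was not tested. In macrophage-like cells Il2ra was also higher after DSS in mutant mice, at 32.4 against 14.6 CPM without DSS in group means (edgeR adjusted p = 0.0429, 13.9% of genes called, 0.58% in wildtype mice), a level near that of B cell-like cells. For these calls in fibroblast-like and macrophage-like cells, fits that left out 1 library are not given, so dependence on single libraries is not shown.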

How the data were processed

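Droplet 3′ single-cell RNA sequencing libraries of CD4+-enriched colonic cells were deposited as tables of UMI counts per gene and barcode. Per the submitters' processing notes they used Cell Ranger 3.1.0, Seurat 4.0.1 and the mm10 build. How the authors chose their deposited list of 27420 cell barcodes is not given in the sources used here. The 7 genes and the gene lists were chosen with earlier results of these data known.

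Barcodes with at least 400 genes and under 20% mitochondrial counts were kept (median 1886 to 3019 UMIs per library). They were clustered with scanpy 1.11.5 (2000 variable genes less those named next, 30 components, 15 neighbours, resolution 1). Left out were the 7 genes, the pathway list, and haemoglobin, mitochondrial, sex-linked and T cell receptor V, D and J genes. This left 1951 genes for all barcodes and 1957 for the T and innate lymphoid cells. Clusters were named from marker lists, and no doublets were removed, since Scrublet's automatic threshold called 0 barcodes. Counts were summed per library and population and tested across all 8 libraries with edgeR 4.0.16 (quasi-likelihood test, filter on low counts, TMM scaling, 4 group means), with Benjamini-Hochberg adjustment over all genes of a fit and a threshold of 0.05. DESeq2 1.42.0 was an alternative. Standard errors and differences are on the log2 scale. For edgeR, the standard error is the absolute log2 difference divided by the square root of the F statistic of its test. Comparisons with DSS and between genotypes share libraries.

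Differences between subsets used an exact paired permutation test of log2(CPM + 1) over the 8 libraries, two-sided, adjusted over 315 tests. All 7 genes were named, with values for those that passed the filter on low counts (Il7 and Il15 did not in CD4 T cells). Of the pathway list, those past the threshold in any comparison and the 3 with the smallest p for DSS in wildtype mice were named. The edgeR step was also run on counts simulated for all 8 libraries from the mean gene levels and library sizes of the CD4 T cells. Changes were placed in the DSS wildtype libraries, and the spread was a fixed setting, not estimated from these data. There (10925 genes tested) the step recovered 22% of 50 genes changed 1.5-fold, 66% at 2-fold and 92% at 4-fold, with 5 false calls. Intervals cover counting error only.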

Additional observations from a re-analysis of the deposited data

How the results depend on the processing

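No paired analysis was possible because the labels share no replicate number between groups and do not say that libraries with neighbouring animal numbers share a litter, batch or day. Of 689 recomputed values, 602 kept their direction and side of the threshold (counts within 1.5 times), 33 counts moved, 31 values lost and 20 gained a call, and 3 reversed without passing the test. Calls of the 7 genes in CD4 T cells went from 0 to 2 for DSS in wildtype mice with no filter on low counts and with DESeq2 (0 to 1 leaving out 1 library), and from 2 to 1 for DSS in mutant mice with only the 4 libraries compared (0 to 2 leaving out 1). Within subsets, calls for DSS in wildtype mice went from 3 to 8 with no filter, 6 with DESeq2 and 5 with only the 4 libraries compared (1 to 6 leaving out 1), those in mutant mice from 4 to 9 with no filter and 7 with DESeq2 (2 to 6 leaving out 1), and untreated mutant against wildtype from 0 to 2 with no filter. All genes called over the same subset fits went from 571 to 3020, 725 and 996 for DSS in wildtype mice, from 3287 to 6657 with no filter and 2033 with DESeq2 in mutant mice, and from 35 to 462 with no filter for untreated mutant against wildtype. The tests also rose, from 80483 to 163273 with no filter or DESeq2. As shares of tests, the wildtype calls went from 0.709% to 1.85%, 0.444% and 1.31%. The mutant share was 4.08% both with and without the filter and 1.25% with DESeq2. For untreated mutant against wildtype it went from 0.0435% to 0.283%. Pathway genes called went from 0 to 1 with no filter for DSS in wildtype mice (Stat5b), for untreated mutant against wildtype and for the interaction (both Il21), and from 2 to 1 for DSS in mutant mice with only the 4 libraries compared (0 to 2 leaving out 1).

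The reversed values were Il2 with DSS in wildtype T cells on or off the authors' list (-0.30), Il7 in fibroblast-like cells of wildtype mice without untreated wildtype replicate 2 (0.082, range over left-out libraries -0.25 to 0.082), and Il15 in macrophage-like cells of mutant mice without DSS mutant replicate 1 (-0.57, range -0.57 to 0.71). The cause of these changes was not tested. Over all genes, the 27 calls for DSS in wildtype CD4 T cells became 829 with no filter, 197 with DESeq2 and 67 with only the 4 libraries compared, and the 495 in mutant mice became 1588, 540 and 124. Pairs of subsets called went from 161 to between 136 and 167 of 315 under other scales and cell choices, to 108 of 196 at resolution 0.5, and to 44.8% to 47.9% of pairs leaving out 1 library. None reversed among settings with the same subsets, which leaves out resolution 0.5. Leaving out called doublets, or clusters with 3 stress markers among their leading 10 genes, could not be run because there were none. The highest 8% of Scrublet scores and cluster 7 were left out instead, as alternatives chosen after seeing the data. In the simulation, with its fixed spread and 2 libraries per group, most 1.5-fold differences were missed.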

Other observations

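Rare lymphoid cells were picked by marker gates set after the data had been seen, and each was pooled over the 8 libraries, so there is no test and the exact Poisson 95% intervals cover counting error only. A gate for group 2 innate lymphoid cells held 55 cells with Il2ra at 849 CPM (687 to 1038) and Il7r at 438 (324 to 579). That gate, with Gata3 and Il1rl1 among its markers, asked for no captured Cd3, T cell receptor constant or Foxp3 UMI. Treg cells whose transcripts of these genes were missed could enter it, and their part was not tested. A gate for group 3 innate lymphoid cells held 294 cells with Il2rb at 1443 CPM (1359 to 1530) and Il7r at 1176 (1100 to 1255). A gate for natural killer or group 1 innate lymphoid cells held 21 cells with Il2rb at 1709 CPM (1351 to 2133). A gate for CD8 T cells held 487 cells, with Il2ra at 85.8 (71.0 to 103), Il2rb at 415 (382 to 451) and Il7r at 229 CPM (204 to 256), and no Il7 or Il15 UMI in 1375713.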
